A study of Mus musculus with 3 samples.

Results

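The 37 genes of the mitochondrial genome were followed through 1536 single-cell transcriptomes of mouse embryonic stem (ES) cells. They were chosen as every row of the count tables that had a mouse Ensembl identifier and a gene symbol starting with mt-, which gave 37 of 52636 genes. They comprised 13 mRNAs, 2 rRNAs and 22 tRNAs. The cells were JM8.N4 ES cells of the C57BL/6N strain, grown on gelatin without feeders in serum, LIF and the 2i inhibitors, and all of them, controls included, carried RAD21 fused to an auxin-induced degron (AID). Auxin leads to the destruction of RAD21, a subunit of the cohesin ring that folds nuclear chromatin. Control cells were untreated and auxin-treated cells received 500 µM auxin for 6 h. The whole procedure was carried out 3 times, and since both conditions carry the degron, its own effect cannot be told apart here. Smart-SCRB counts each captured transcript by a unique molecular identifier (UMI) read near its 3′ end.

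Mitochondrial DNA is a small circle that codes for subunits of respiratory complexes I, III and IV and of ATP synthase (complex V), and for the rRNAs and tRNAs of the organelle's own ribosomes. Each strand is transcribed by the nuclear-encoded polymerase POLRMT with TFAM as a long RNA, which is cut at the tRNAs into single transcripts. The remaining respiratory subunits come from nuclear genes, and cohesin has no known place on the mitochondrial genome.

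The nuclear genome also holds old copies of mitochondrial DNA, with which the reads of a member can be confused. Each member was compared with all other transcripts of the GENCODE annotation of GRCm38 (mm10) in windows of 50 bases, the length of the cDNA read. Transcripts of the pseudogenes at chr1:24611535-24616197 were letter-identical to most windows of some members. The last window that lies within such a copy is printed here for the 5 mRNAs that were counted at 0 in replicates 2 and 3, as a read of these letters has more than 1 place in the annotation. It is followed by the chromosome 1 pseudogene on the minus strand that holds the same letters. These sequences are in lower case throughout because no base differs.

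mt-Co2, chrM:7644-7693 (Gm28661, chr1:24614885-24614934): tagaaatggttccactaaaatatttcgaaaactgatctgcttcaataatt
mt-Atp6, chrM:8555-8604 (Gm10925, chr1:24613974-24614023): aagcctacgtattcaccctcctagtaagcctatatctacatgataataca
mt-Co3, chrM:9340-9389 (Gm28437, chr1:24613189-24613238): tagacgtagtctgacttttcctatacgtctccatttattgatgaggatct
mt-Nd3, chrM:9754-9803 (Gm28438, chr1:24612775-24612824): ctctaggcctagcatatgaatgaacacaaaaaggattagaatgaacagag
mt-Nd4l, chrM:10121-10170 (Gm10222, chr1:24612407-24612456): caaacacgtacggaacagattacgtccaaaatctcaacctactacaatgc

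The members with the highest counts end in sequence that differs from the nearest annotated transcript. The window at the end of mt-Cytb, the cytochrome b of complex III, differed from its closest match in Gm11410 at 5 bases, and that of mt-Nd1, a core subunit of complex I, from Gm11834 at 11 bases. In the next lines, capitals mark the bases that differ between member and copy.

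mt-Cytb, chrM:15238-15287: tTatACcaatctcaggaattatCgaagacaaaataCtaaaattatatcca
Gm11410, chr4:80005082-80005131: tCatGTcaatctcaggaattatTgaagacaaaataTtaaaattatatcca
mt-Nd1, chrM:3658-3707: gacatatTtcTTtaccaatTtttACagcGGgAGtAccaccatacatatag
Gm11834, chromosome 4: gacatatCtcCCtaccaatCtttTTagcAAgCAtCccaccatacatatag

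Over all deposited wells, mt-Co2 had 0 UMIs in every replicate. The members mt-Atp6, mt-Co3, mt-Nd3 and mt-Nd4l had 4025, 40, 7 and 24 UMIs in replicate 1 and 0 in replicates 2 and 3. In the wells of settled condition used below, 3 counts correspond to 0.0302 CPM (UMIs scaled to the mouse total of the summed wells) in replicate 2 and to 0.235 CPM in replicate 3, which is the limit that a count of 0 allows. For these 5 members, between 98.0% and 100% of all windows were shared with another annotated transcript. By contrast, the share was 0% for mt-Rnr1, mt-Nd1, mt-Atp8, mt-Nd6, mt-Cytb and the tRNAs. It was 1.04% for mt-Rnr2, 7.61% for mt-Nd5, 8.19% for mt-Nd2, 51.1% for mt-Co1 and 62.2% for mt-Nd4, whose last 300 bases held 0 shared windows. The last 300 bases of mt-Co1, the catalytic subunit of complex IV, were shared completely, and it was still counted with 9619, 18701 and 8234 UMIs in replicates 1, 2 and 3. The copies themselves collected few UMIs. Gm28438 had 384, 533 and 75 and Gm10925 had 0, 157 and 30 in replicates 1, 2 and 3. Between 14.5% and 20.7% of the reads of a plate mapped to several places in replicate 1, against 21.2% to 23.0% in replicate 2 and 21.2% to 22.9% in replicate 3. The part of shared sequence in the counts of these 5 members was not tested, and copies outside annotated transcripts were not searched.

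mt-Cytb had the highest level of all members in every replicate and condition. Levels of different genes were compared in CPM per kilobase of transcript over the 6 sums of a replicate and a condition, although a 3′ count does not grow with length. The mean was 15262 CPM per kb for mt-Cytb (7651 to 25346) and 5022 for mt-Nd1 (3768 to 7524). It was 2482 for mt-Rnr2, the large ribosomal RNA (1419 to 4640), and 1388 for mt-Rnr1, the small one (795 to 2549). The complex I subunit gene mt-Nd4 followed with 655 CPM per kb (498 to 871). Per kilobase, these 5 stood in this order in all 6 sums. In CPM, mt-Rnr2 stood above mt-Nd1 in control wells of replicate 1 (7340 against 7200). The mean CPM of mt-Nd5 was above that of mt-Nd2 (308 against 299). Below these 5, mt-Nd2 had a mean of 288 CPM per kb, and mt-Atp8, mt-Nd5, mt-Co1 and mt-Nd6 had means of 170, 169, 163 and 150. The ranges of the last 4 overlapped, and that of mt-Nd2 overlapped with all of them but mt-Nd6. mt-Nd6 is the only mRNA on the other strand. Whether counting used the strand is not given in the sources used here, so that mt-Nd6 and its overlap with mt-Nd5 are uncertain, as are the overlaps of mt-Atp8 with mt-Atp6 and of mt-Nd4l with mt-Nd4. Of the tRNAs, mt-Td, mt-Tt and mt-Tp had the highest means over the sums (201, 119 and 67.6 CPM per kb), and the other 19 had means between 0.050 and 40.0. The order differed between replicates. In replicate 1, mt-Tt led with 102 and 116 CPM per kb in control and auxin-treated wells, while mt-Td had 1.59 and 0 and mt-Tp had 8.28 and 6.98, below mt-Tc with 13.5 and 10.2.

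**Figure D1:**
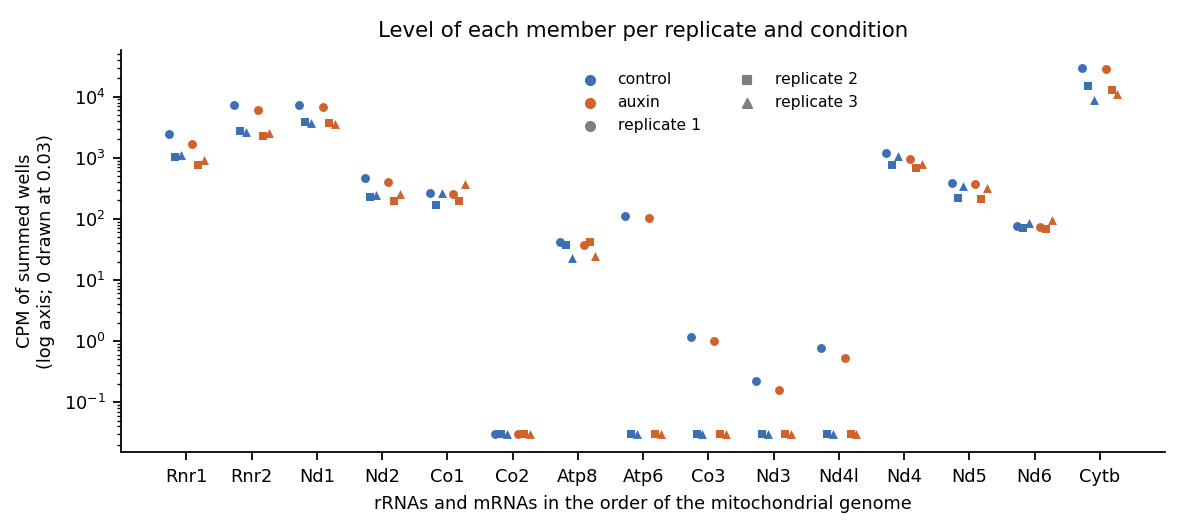
Level in CPM (log axis) of the 15 mitochondrial rRNAs and mRNAs in the order of the genome, 1 point for each replicate (shape) and condition (colour), with 0 drawn at the foot. mt-Cytb is highest in every sum, and mt-Co2, mt-Atp6, mt-Co3, mt-Nd3 and mt-Nd4l lie at 0 in replicates 2 and 3.

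In the deposited well annotation, plates of replicates 2 and 3 are named control or auxin, while those of replicate 1 are named RAD21 positive or negative, which were read as control and auxin. The 16 plates of 96 wells were divided as 4, 8 and 4 between replicates 1, 2 and 3, and every plate held 1 condition. The study kept wells with more than 2600 detected genes. Of these, 1167 wells lay on plates of settled condition, and 168 wells on 2 plates of replicate 3 were left out because the deposited annotation and the study's source values disagree on their condition. Replicate 1 was read on another sequencer than replicates 2 and 3, which share their 96 well barcodes. The median was between 72317 and 187088 mouse UMIs per well in the 6 groups. Of 8 ES cell markers, summed to between 2944 and 9935 CPM, Tdgf1 had 573, 573 and 578 CPM in replicates 1, 2 and 3. Nanog had 531, 48.6 and 509 CPM and Dppa5a 7692, 2829 and 6612 CPM, both lowest in replicate 2. Sox2 had 4661, 0 and 0 UMIs and Pou5f1 9302, 705 and 149. Sox2ot, which overlaps Sox2, had 39, 1549 and 199. Markers of fibroblasts, primitive endoderm and trophoblast summed to between 1.87 and 41.5 CPM.

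Mitochondrial transcripts made up a larger share of the cell's RNA in replicate 1 than in replicates 2 and 3. Of the summed mouse UMIs, 4.85% in control and 4.48% in auxin-treated wells of replicate 1 were mitochondrial. Replicate 2 had 2.43% and 2.08%, and replicate 3 had 1.83% and 2.01%. The plate medians lay between 4.29% and 4.83% in replicate 1, between 1.97% and 2.42% in replicate 2 and between 1.78% and 2.05% in replicate 3, so that the plates of replicate 1 did not overlap with the others. A share also depends on its denominator. Against the ERCC spike-in RNA added to each well, control wells held 0.994, 0.739 and 0.788 mitochondrial UMIs per ERCC UMI in replicates 1, 2 and 3, while nuclear transcripts went from 19.5 to 29.7 and 42.3. Per spike-in, the wells of replicate 3 thus had less mitochondrial and more nuclear RNA than those of replicate 1 in both conditions (auxin-treated wells, 1.09 and 0.969 mitochondrial and 23.2 and 47.3 nuclear UMIs per ERCC UMI). Sequencer, saturation (0.283 to 0.314 in replicate 1 and 0.470 to 0.579 in the others), any difference in counting program or annotation, and replicate cannot be told apart.

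**Figure D2:**
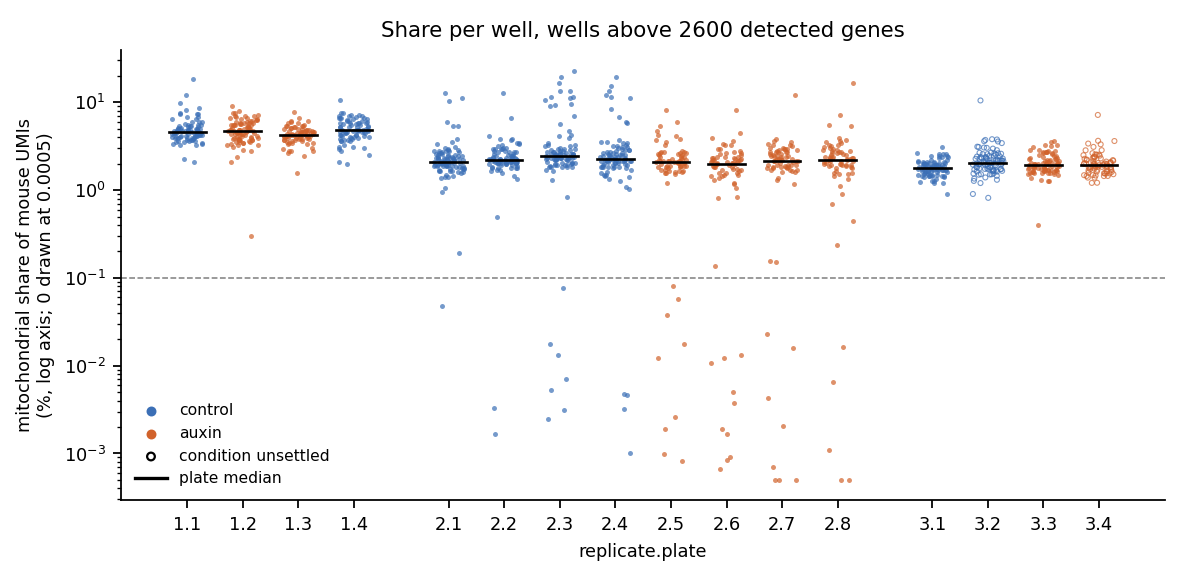
Mitochondrial share of the mouse UMIs of each well (percent, log axis) on the 16 plates, with the plate median as a bar. Plate medians are 4.29% to 4.83% in replicate 1 and at most 2.42% elsewhere, and the 46 wells under the dashed line at 0.1% are all in replicate 2.

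In edgeR's quasi-likelihood test across the 3 replicates, with control and auxin sums as the samples of a replicate, 54.5% of 17514 genes passed an adjusted p of 0.05, and 13 of the 17 members tested did. Without the near-empty wells 12 members and 9444 of 17481 genes did, with mt-Nd6 at an adjusted p of 0.0769 in edgeR. With ERCC sums as library sizes 15 members and 14325 of 17514 genes did, with mt-Atp8 at an adjusted p of 0.0852 in edgeR. The main transcripts were lower in both later replicates. mt-Cytb differed from replicate 1 by a log2 fold change of -1.42 in replicate 2 and -1.93 in replicate 3 (edgeR, adjusted p = 2.32e-05 over the 3 replicates). The values were -1.31 and -1.36 for mt-Nd1, -1.84 and -1.79 for mt-Rnr2, and -1.61 and -1.41 for mt-Rnr1 (edgeR, adjusted p = 2.79e-06, 2.25e-06 and 6.76e-06), against medians of 0.16 and 0.13 over all genes. In all, 10 members were lower in replicates 2 and 3, and with ERCC sums as library sizes, where the median of all genes in replicate 2 moved to 1.05, the values of replicate 2 shrank to -0.52 for mt-Cytb, -0.41 for mt-Nd1, -0.71 for mt-Rnr1, -0.94 for mt-Rnr2, -0.53 for mt-Nd2, -0.31 for mt-Nd5 and -0.054 for mt-Nd4, while mt-Co1, mt-Nd6 and mt-Atp8 had positive values (0.02, 0.41 and 0.50).

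Of the 17 members, 3 tRNAs passed and were higher in both later replicates, as were 27.1% of all genes. mt-Tp, on the strand opposite to most genes, had log2 fold changes of 3.22 and 3.31 in replicates 2 and 3 against replicate 1 (edgeR, adjusted p = 0.00153). mt-Tm had 2.15 in replicate 2 and was also higher in replicate 3 (edgeR, adjusted p = 0.0122). mt-Td, the aspartate tRNA between mt-Co1 and mt-Co2, had 2 UMIs in replicate 1, 1332 in replicate 2 and 366 in replicate 3. Per mouse UMI, this was 249 times (95% exact conditional interval 68.9 to 2061, for counting error only) and 535 times (147 to 4431) the level of replicate 1. The fitted log2 fold changes of mt-Td, 7.46 and 8.55 (edgeR, adjusted p = 2.66e-05), depend on the prior count. Of all genes, 18.5% passed the test and were lower in both later replicates. Of the complex IV subunit genes, 10 of 10 tested did so, with median log2 fold changes of -0.98 and -0.80. In complex V 13 of 15, in complex I 22 of 35 and in complex III 5 of 9 did so. The p-values of these fits measure only the spread between these sums.

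The share differed from well to well within each group, wells at both extremes included. Its standard deviation (SD) over wells was 1.80 percentage points in control and 1.25 in auxin-treated wells of replicate 1. It was 2.88 and 1.59 for replicate 2 and 0.384 and 0.560 for replicate 3, while counting error gave between 0.0469 and 0.0713. Wells with few UMIs had larger shares in some groups. In control wells of replicate 2, the third of the wells with the fewest UMIs had a share of 3.46% of summed UMIs, against 2.17% and 2.32% in the others. The Spearman correlation of the share with the UMI total of the well lay between -0.26 and -0.0052 in the 6 groups, and that with the detected genes between -0.32 and 0.015 (84 to 371 wells of shared libraries, a description).

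Replicate 2 contained wells with almost no mitochondrial RNA. Whether these wells held whole cells, damaged cells or bare nuclei was not tested. Among wells with more than 2600 detected genes, 46 had a share under 0.1%, a limit set after the shares were seen. All were in replicate 2. Their highest share was 0.0814%, and the lowest share above the limit in any well was 0.137%. They had between 0 and 57 mitochondrial UMIs with a median of 3, and 5 wells had 0, which allows a share of up to 0.0205% in the shallowest of them. The median of these 46 wells was 100280 mouse UMIs and 6588 detected genes. They were found on 8 of 8 plates of replicate 2 and at 39 of 96 well positions. The 4 control plates held 1, 2, 7 and 4 of them and the 4 auxin plates 9, 10, 8 and 5. This was 14 of 371 control wells (3.77%, exact 95% interval 2.08 to 6.25) and 32 of 290 auxin-treated wells (11.0%, 7.67 to 15.2). Every auxin plate except the last held more of them than any control plate. No source used here says that plates of a condition came from separate cultures, so the difference between conditions has no replicate. Of 337 wells in replicate 1 and 337 in replicate 3, 0 were under the limit, which allows a share of up to 0.890% of wells. Intervals and limits cover counting error only.

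The low counts of the abundant members in these wells follow from how the wells were chosen and are given as a description. mt-Cytb had 58 UMIs over the 14 control wells against 746550 over the other 357, and 82 over the 32 auxin-treated wells against 640473 over the other 258. mt-Nd1 had 21 and 33 UMIs, mt-Rnr2 8 and 93, mt-Rnr1 7 and 64, and mt-Nd4 5 and 2 in control and auxin-treated wells. In total, 109 of 1173053 and 310 of 3155113 mouse UMIs were mitochondrial. Of the chromosome 1 copies, Gm28438 had 0 and 0 UMIs in these wells against 268 and 260 (5.74 and 5.62 CPM) in the others. The wells had as much spike-in RNA as the others, with median ERCC UMIs of 4422 against 4560 in control and 5739 against 5505.5 in auxin-treated wells. Their nuclear RNA was lower, with median mouse UMIs of 95559 against 146875 and 103931 against 195426.

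**Figure D3:**
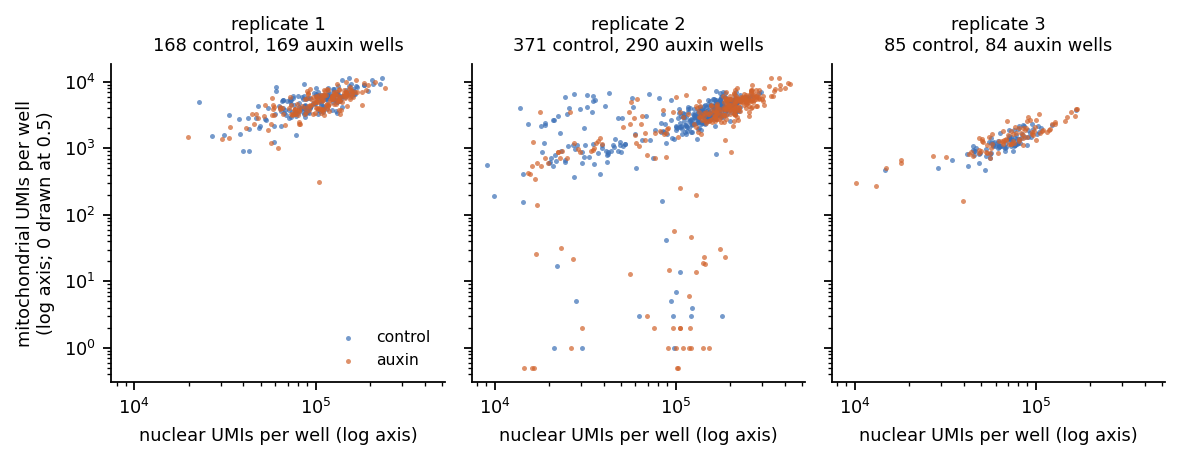
Mitochondrial against nuclear UMIs of each well with more than 2600 detected genes (both axes logarithmic), in 3 panels for the replicates, with control wells in blue and auxin-treated wells in orange. In replicate 2, wells with 0 to 57 mitochondrial UMIs lie below the main band, while others lie above it at low nuclear UMIs.

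The nuclear transcriptome of the same wells was described in CPM of the nuclear UMIs, against the other wells of the replicate and condition. The wells were chosen by their mitochondrial share within 1 replicate, so no test was made, and log2 ratios have a pseudocount of 1. Over 10604 genes the median log2 ratios were 0.066 in control and 0.12 in auxin-treated wells. Some genes of the integrated stress response, a program that answers mitochondrial and amino acid stress, are given as examples that were picked after their values were seen, so that their direction supports no theme. Ddit3, which encodes the stress factor CHOP, stood at 323 CPM against 51.0 in control and at 216 against 33.6 in auxin-treated wells. Atf5 was at 32.4 against 5.96 and at 52.9 against 4.61, and Trib3 at 184 against 121 and at 277 against 43.1. Chac1 went in different directions, with 97.2 against 105 in control and 65.6 against 13.3 in auxin-treated wells.

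Nuclear genes of the respiratory chain were mostly lower in these wells. Nuclear genes of complex IV were lower in both conditions in 10 of 10 measured cases, of complex V in 12 of 14, of complex III in 7 of 9 and of complex I in 27 of 35, where 28.7% of all genes were. Among single genes picked after their values were seen, Ldha, a lactate dehydrogenase subunit gene, was at 525 against 1335 in control and at 383 against 1625 in auxin-treated wells, and the glucose transporter gene Slc2a1 at 309 against 189 and at 320 against 109. The genes that maintain and transcribe mitochondrial DNA had medians of 0.0020 and -0.030. Tfam was at 82.7 against 79.1 and at 87.2 against 80.1, and Polrmt at 40.1 against 40.6 and at 28.5 against 32.3. The nuclear-retained RNAs Malat1 and Neat1 were higher, at 27291 against 10843 and 30524 against 9306 for Malat1 and at 262 against 20.0 and 123 against 16.2 for Neat1. Ranked by the smaller of the ratios in the 2 conditions, the leading genes were Cpeb1, Fam129a, Eno2 and Klf4 upward and Spata45, Car4, Mlst8 and Pdzk1 downward. Cpeb1 stood at 49.4 against 2.93 and at 63.7 against 4.09, and Car4 at 3.41 against 53.2 and at 0.317 against 30.4. The part of bare nuclei, of damaged cells and of the UMI total in these ratios was not tested.

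At the other end, replicate 2 held 33 control wells (8.89%) and 12 auxin-treated wells (4.14%) with a share above 2 times the median of their group, against 5 wells in replicate 1 and 0 on the settled plates of replicate 3. These wells had few nuclear transcripts rather than many mitochondrial ones. Their median mitochondrial UMIs were 3878 and 3686, against 3322 and 4002.5 in the wells outside the near-empty class, while their median mouse UMIs were 33395 and 64484 against 146875 and 195426. Their ERCC medians were 4931 and 6610.5.

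Between auxin-treated and control cells, the sums showed no common shift of the mitochondrial share. On the settled plates mt-Rnr1 was lower in 3 of 3 replicates and passed some of the paired tests given below. The share of summed UMIs in auxin-treated minus control wells was -0.37, -0.35 and 0.18 percentage points in replicates 1, 2 and 3, a mean of -0.18 ± 0.31 (SD, n = 3). The mean was -0.073 for medians over wells and -0.081 for the mRNAs alone. Mitochondrial UMIs per ERCC UMI gave log2 ratios of 0.13, -0.11 and 0.30 (mean 0.11 ± 0.21, SD, n = 3). With all plates of replicate 3 the mean was 0.059 under the deposited annotation and 0.047 under the study's source values. Leaving out the 46 near-empty wells moved the value of replicate 2 to 0.0011. With all wells kept, the replicates had different signs in both measures. Without the near-empty wells, the 3 ratios to ERCC were all positive (mean 0.14 ± 0.15, SD, n = 3). No test was made on a sum over the members. In edgeR's quasi-likelihood test on the sums without a replicate block, 0 of 17514 genes (0%) passed an adjusted p of 0.05, with 33 at an unadjusted p under 0.05, and DESeq2 called 0 with 66. Of the 17 members tested, 0 were called and 0 had an unadjusted p under 0.05 in either tool. This fit leaves the difference between replicates in its SEs, and on simulated sums it called none of the changed genes, so its count of 0 says nothing on whether a member changed.

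Scaled to the mouse UMIs, 14 of the 17 members had negative log2 fold changes after auxin, and with ERCC sums as library sizes 8 of 17 did. mt-Rnr1 was at 2434 CPM in control and 1701 CPM in auxin-treated wells of replicate 1, at 1017 and 760 in replicate 2, and at 1127 and 915 in replicate 3. On the settled plates it was lower after auxin in 3 of 3 replicates. Its log2 fold change was -0.47 (standard error (SE) 0.604, edgeR's adjusted p = 1.00), or -0.23 with ERCC sums as library sizes. The unsettled plates of replicate 3 had 1291 CPM (plate 2) and 873 CPM (plate 4). The deposited annotation names them control and auxin, and the study's source values the reverse. Under the source values mt-Rnr1 was no longer lower in replicate 3, and its log2 fold change with all plates was -0.37. mt-Rnr2 had 7340 and 6120, 2691 and 2245, and 2621 and 2547 CPM in control and auxin-treated wells (-0.25, SE 0.718, edgeR's adjusted p = 1.00, or 0.00044 with ERCC sums). mt-Nd4 also had lower values in all 3 replicates, with 1200 and 939, 754 and 687, and 1060 and 776 CPM (log2 fold change -0.35, SE 0.353, or -0.17 with ERCC sums). mt-Cytb was at 28996 and 27966, 15223 and 12697, and 8752 and 11122 CPM, so that replicate 3 went up, and its log2 fold change was -0.06 (SE 0.690, or 0.19 with ERCC sums). mt-Nd1 had 7200 and 6876, 3825 and 3641, and 3688 and 3606 CPM (-0.08, SE 0.538, or 0.12 with ERCC sums). The tRNA mt-Tm, counted with few UMIs, had a larger difference. It was at 0.610 CPM in control and 0.364 in auxin-treated wells of replicate 1, at 3.79 and 1.98 (186 and 100 UMIs) for replicate 2, and at 7.25 and 2.54 for replicate 3. On the settled plates it was lower in 3 of 3 replicates, and its log2 fold change of -1.23 (SE 1.00) was not called. Over 26 settings its value lay between -1.39 and -0.44. The tested members ranged from -1.66 for mt-Tc to 0.34 for mt-Tw. The median log2 fold change was -0.18 over the 17 members and -0.0010 over all genes. With ERCC sums as library sizes, it was 0.00 for the members and 0.17 for all genes.

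Control and auxin sums of the same replicate shared their deviations. Blocking on the replicate number lowered the SEs, and edgeR then called 3 genes (0.0171%) and 0 members. An unadjusted p under 0.05 was found for 4 of the 17 members and for 1036 of all 17514 genes. mt-Rnr1 had -0.43 (SE 0.0761, edgeR's adjusted p = 0.305 with the block), and mt-Tm had -1.10 (SE 0.455, edgeR's adjusted p = 0.838 with the block). With the block and all plates, the lowest edgeR adjusted p of a member was 0.0970 under the deposited annotation. It was 0.985 under the study's source values. DESeq2 with the block called 0.656% of 8686 genes and 1 member, mt-Rnr1, at -0.44 (DESeq2's adjusted p = 0.00620). With plates as samples and the replicate as a block, edgeR called 1.5% of 15640 genes and again 1 member, mt-Rnr1, at -0.47 (SE 0.0962, edgeR's adjusted p = 0.0227), although plates are not known to be separate cultures, in which case the p is too small for a statement about the treatment. In replicate 2 alone, 5.43% of 16349 genes differed between its 4 control and 4 auxin plates. There, mt-Rnr1 (-0.46, SE 0.0665, edgeR's adjusted p = 0.00218), mt-Rnr2 (-0.30, SE 0.0597, edgeR's adjusted p = 0.0134) and mt-Cytb (-0.30, SE 0.0705, edgeR's adjusted p = 0.0299) were 3 of 432 genes lower after auxin (2.64%). In these 8 plates, mt-Rnr1 ranged from 948 to 1093 CPM in control and from 701 to 834 CPM in auxin plates, and mt-Rnr2 from 2532 to 3014 and from 2114 to 2339, without overlap. How many of all genes had plates without overlap was not counted. The plates of mt-Cytb overlapped, with 13261 to 17243 CPM in control and 11360 to 13565 CPM after auxin. The near-empty wells, more frequent on the auxin plates, were part of these sums. Of 7 ES cell markers tested on the same plates, Nanog (-0.63), Esrrb (-1.41) and Dppa5a (-0.79) were lower after auxin. Of 3 trophoblast markers Eomes was lower, and of 2 fibroblast markers Dcn was higher (1.04). The part of these shifts in the member values was not tested.

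**Figure D4:**
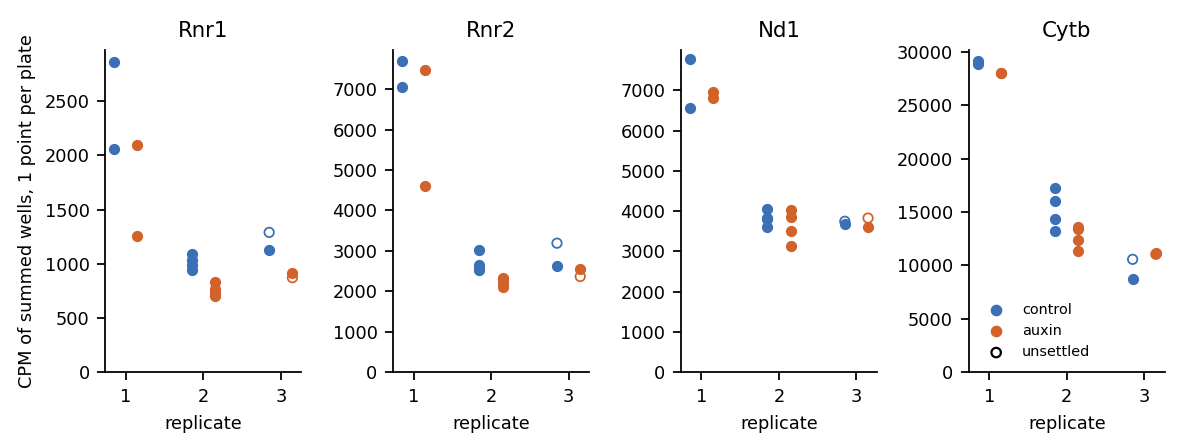
CPM of mt-Rnr1, mt-Rnr2, mt-Nd1 and mt-Cytb in the summed wells of each plate, by replicate, for control (blue), auxin-treated (orange) and unsettled plates (open). Auxin plates of replicate 2 lie below its control plates for mt-Rnr1 and mt-Rnr2, and overlap with them for mt-Nd1 and mt-Cytb.

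On the settled plates, the rRNA part of the mitochondrial UMIs was lower after auxin in 3 of 3 replicates, a description with no test. It went from 20.1% in control to 17.4% in auxin-treated wells of replicate 1, from 15.3% to 14.5% in replicate 2 and from 20.5% to 17.2% in replicate 3. The ratio of mt-Rnr1 to mt-Nd1, which cancels the total, was between -2.01 and -1.86 on the log2 scale on the 4 control plates of replicate 2 and between -2.33 and -2.16 on the 4 auxin plates. In replicate 1 it was -1.19 and -1.91 on control and -1.70 and -2.47 on auxin plates, which overlap, and in replicate 3 it was -1.71 on the control and -1.98 on the auxin plate of settled condition. The unsettled plates had -1.54 (plate 2, annotated as control) and -2.13 (plate 4, annotated as auxin). The study's source values name these plates the other way round, and the rRNA part was then not lower after auxin in replicate 3. mt-Rnr2, the larger part of the rRNA, overlapped in replicate 2, where its log2 ratio to mt-Nd1 was between -0.61 and -0.26 on control and between -0.80 and -0.57 on auxin plates. In replicate 3 it was -0.49 and -0.50. Values for the tRNAs rested on few UMIs, which made up between 0.028% and 0.35% of the mitochondrial total.

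The nuclear genes of the respiratory chain and of mitochondrial gene expression were tested in the same fits. In 10 lists of such genes, 162 of 166 members were tested, and edgeR called 0 with and 0 without the block, with 0 at an unadjusted p under 0.05 without it. On the plate sums of replicate 2, where 5.43% of all genes passed, 6 of 162 did. These were Tefm, a mitochondrial elongation factor gene (-0.43), Uqcrq of complex III (-0.29), Esrrb (-1.41), Trap1 (-0.33) and Afg3l2 (-0.79), all lower after auxin, and Yy1 (0.45), which was higher. In the fit on the sums without the block, the medians of the lists lay between -0.07 and 0.08, close to that of all genes. Tfam, which packages mitochondrial DNA, had a log2 fold change of -0.12 (SE 0.386) and Polrmt one of -0.08 (SE 0.313). The lowest value in the list of transcription and maintenance was that of the DNA polymerase gene Polg (-0.45, SE 0.375) and the highest that of Tk2 (0.25, SE 0.415). Among factors of mitochondrial translation, Lars2 and Cars2, both tRNA synthetase genes, marked the ends (-0.63, SE 0.651, and 0.37, SE 0.232). Subunit genes of complex IV lay between -0.10 for Cox6c and 0.03 for Ndufa4, and those of complex I between -0.22 for Ndufb2 and 0.10 for Ndufa8.

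Wells with at most 2600 detected genes held a mitochondrial RNA of other make-up. On settled plates there were 177 such wells, and their sums were compared with those of the wells above the limit, in the same replicate and condition. In control and auxin-treated wells, rRNA made up 70.6% and 38.3% of mitochondrial UMIs in replicate 1. The parts were 32.6% and 50.8% for replicate 2 and 57.7% and 59.9% for replicate 3. Above the limit it was between 14.5% and 20.5%. mt-Rnr1 stood at 23418 and 6962 CPM in replicate 1, at 6064 and 11118 for replicate 2 and at 6447 and 5024 for replicate 3, all above the highest value of the wells over the limit, 2434 CPM. mt-Rnr2 stood between 10938 and 41203 CPM, against 2245 to 7340. In edgeR's quasi-likelihood test, 11.7% of 10982 genes passed and 2.09% were higher in the poor wells. Of the 13 members tested, these 2 rRNAs passed, with log2 fold changes of 2.32 for mt-Rnr1 (SE 0.294, edgeR's adjusted p = 8.49e-12) and 1.88 for mt-Rnr2 (SE 0.240, edgeR's adjusted p = 1.33e-11). mt-Nd1 and mt-Cytb had values of -0.53 (edgeR's adjusted p = 0.187) and -0.50 (edgeR's adjusted p = 0.0845), where the median of all genes was -0.90. With DESeq2's size factors, edgeR called 5.88% of genes and 7 members, all higher, that median was 0.02, and mt-Nd1 and mt-Cytb had positive values (0.45 and 0.47). With the limit at 4000 detected genes, 8.78% of 11885 genes and 5 members passed, the members all higher in the poor wells. Without a filter on low counts, 4.41% of genes and 4 members passed, and mt-Cytb was then lower (-0.91, edgeR's adjusted p = 0.00962). Leaving out replicate 1, 2 or 3 gave 5.22%, 0.626% and 2.01% of genes. Without replicate 2, mt-Cytb (-0.87, edgeR's adjusted p = 8.05e-05) and mt-Nd1 (-0.94, edgeR's adjusted p = 0.0365) passed as lower, beside both rRNAs as higher.

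The poor wells differed between replicates in their medians, with wells of low and high UMI totals in both conditions of replicates 1 and 2 and in auxin-treated wells of replicate 3. In replicates 1 and 2 their medians were between 269.5 and 816 mouse UMIs, with ERCC medians of 3314 to 6425, against 4551 to 5511.5 above the limit. In replicate 3 they had medians of 8030 and 4713 mouse UMIs with 135 and 185 ERCC UMIs, against 1654 and 1711.5. The summed shares, 9.15% and 6.23% in replicate 1 and 6.21% and 6.75% in replicate 2, stood above the medians of 3.50% and 2.97%, and 0.483% and 0.496%, so that the sums rest on few wells. In control wells of replicate 2, 1 well held 2131 of the 3318 mitochondrial UMIs.

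Across single cells, pairs of mitochondrial genes had positive mean correlations in every group. Spearman correlations were taken on CPM across the wells of a replicate and condition, for 11 members per replicate with a mean of at least 1 UMI. Averaged over all pairs, it was 0.213 for control and 0.268 for auxin-treated wells of replicate 1. The averages were 0.337 and 0.446 for replicate 2 and 0.0851 and 0.0482 for replicate 3. Pairs among 9505 nuclear genes had means between 0.0069 and 0.051, but most nuclear genes have far fewer UMIs than the abundant members, and no set matched for level was used. All pairs of a group share their wells and libraries, and the members share the denominator, so these values are descriptions. The rRNAs had the highest mean of all pairs (0.750), with 0.791 and 0.821, 0.812 and 0.831, and 0.689 and 0.553 in control and auxin-treated wells of replicates 1, 2 and 3. They are neighbours on the genome, separated by mt-Tv. Next came mt-Nd1 and mt-Cytb, which lie far apart, with a mean of 0.613 (0.439 to 0.821). In auxin-treated wells of replicate 3 that pair, at 0.701, was above the rRNAs. mt-Nd6, from the opposite strand, had low means with the other mRNAs (0.067 with mt-Nd2, -0.29 to 0.41, and 0.14 with mt-Cytb, -0.10 to 0.41) and higher ones with mt-Rnr1 and mt-Rnr2 (0.32 and 0.36). Without the near-empty wells these means were 0.025, 0.096, 0.28 and 0.33. Members of the other strand also had such values with all wells kept. mt-Nd5 had 0.39 with mt-Rnr1 and 0.38 with mt-Rnr2, and mt-Nd1 had 0.080 with mt-Rnr1. mt-Nd6 had few UMIs, with a mean of 9.28 per well and detection in 79.6% of wells. The part of strand and of level in these means was not tested.

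The difference between conditions depended on the near-empty wells. It was 0.055, 0.11 and -0.037 in replicates 1, 2 and 3 (mean 0.042 ± 0.074, SD, n = 3). Without the near-empty wells, an alternative added after the data were seen, the pair mean of replicate 2 was 0.266 in control and 0.250 in auxin-treated wells, its difference turned to -0.016 and the mean over replicates to 0.00053. On raw counts, which carry the UMI total of the well, the differences were 0.023, 0.14 and 0.079.

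**Figure D5:**
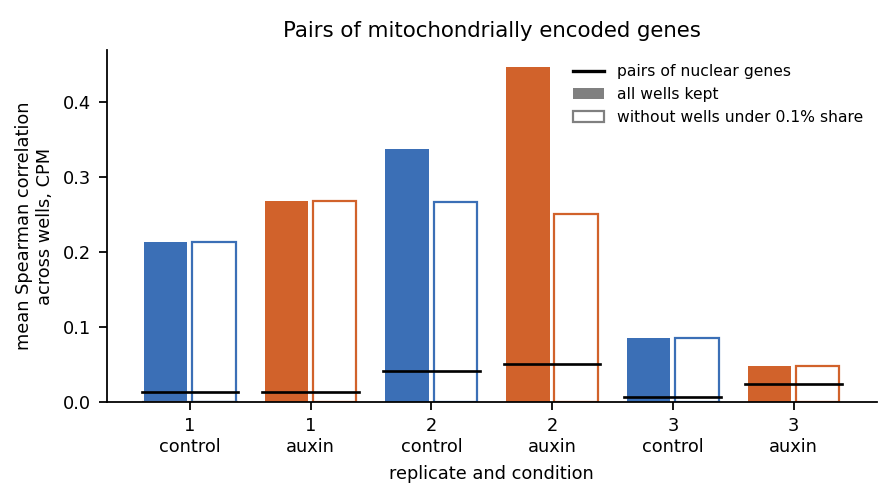
Mean Spearman correlation across wells of all pairs of mitochondrially encoded genes, on CPM, by replicate and condition, with all wells (filled) and without the wells under 0.1% mitochondrial share (open), and with the mean over pairs of nuclear genes as a line. Filled and open bars differ only in replicate 2, where they are 0.337 and 0.266 in control and 0.446 and 0.250 in auxin-treated wells.

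The nuclear genes that followed the mitochondrial share from cell to cell did so weakly. Over 5946 nuclear genes with a mean of at least 3 UMIs, the mean Spearman correlation over the 6 groups lay between -0.26 and 0.25, with a median of -0.048. The highest were Unc5d, Gm42418, Malat1, Rpl37a and Dst, and the lowest Cct4, Psat1, Eif4a1, Arf1 and Eif1. Of these, Unc5d was led by replicate 2 (0.51 in control and 0.49 in auxin-treated wells) and had -0.17 in auxin-treated wells of replicate 1, whereas Malat1 was positive in all 6 groups (0.039 to 0.38). Cct4, a subunit of the cytosolic chaperonin, and the translation factor genes Eif4a1 and Eif1 were negative in all 6 groups.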

How the data were processed

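The authors sorted single cells into 96-well plates with ERCC spike-ins, aligned reads to mm10 and deposited UMI counts per gene and well. The counting program and annotation are not given in the sources used here. The deposited well annotation also holds percent of reads by mapping class and saturation as a fraction. These were used as given.

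UMIs were summed per replicate and condition over wells with more than 2600 detected genes, the study's filter. Plates were assigned to control or auxin by the deposited well annotation (RAD21 positive and negative in replicate 1 were read as control and auxin), and 2 plates of replicate 3 with contradicting sources were left out. edgeR 4.0.16 (R 4.3.3; TMM, filterByExpr, quasi-likelihood test, Benjamini-Hochberg adjustment over all genes, threshold 0.05) was the main test, without a replicate block. DESeq2 1.42.0, a replicate block, ERCC scaling and other filters were alternatives. Control and auxin sums of a replicate deviated together (r = 0.854, 0.816 and 0.650 for replicates 1, 2 and 3), so replicate numbers pair the samples. Spearman correlations used scipy 1.17.1. The methods were tested on simulated data, where the condition test without the block called none of the changed genes and the test with the block called more of them the larger the change. The main test was kept, and a count of 0 from it is not evidence of no change.

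The members and lists were chosen with earlier results of these data known. The stress genes and the alternatives without wells under 0.1% were chosen after seeing the data. All mitochondrial mRNAs and rRNAs, the 3 highest tRNAs, the extremes of each nuclear list, Tfam and Polrmt, and the 5 highest and 5 lowest genes by correlation with the share were to be named, of which the text gives a part.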

Additional observations from a re-analysis of the deposited data

How the results depend on the processing

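Between auxin and control, 0 members were called in every setting except DESeq2 with the replicate block (1), plate sums with the replicate block (1) and plate sums of replicate 2 alone (3). With the replicate block in edgeR, 0 members were called, and mt-Rnr1 had -0.43. mt-Rnr1, mt-Nd4, mt-Tm, mt-Td and mt-Ti were negative in 26 of 26 settings, mt-Rnr1 between -0.53 and -0.23, mt-Nd4 between -0.41 and -0.14 and mt-Tm between -1.39 and -0.44. With ERCC sums as library sizes, log2 fold changes turned to 0.00044 for mt-Rnr2, 0.12 for mt-Nd1 and 0.19 for mt-Cytb, and with the block to 0.12 for mt-Nd1 and 0.18 for mt-Cytb. With the block, mt-Cytb also turned to 0.0077 for wells above 4000 genes, to 0.020 without the near-empty wells, to 0.044 without replicate 1 and to 0.14 without replicate 2. Without the block it lay between -0.14 and 0.0034 when a replicate was left out. No cause was tested. On simulated sums of this comparison, the test called no changed gene without the block and did call some with it.

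In wells at or below 2600 genes, 7 members were called with DESeq2's size factors, 4 without a filter on low counts, 5 at a limit of 4000, and 2 to 4 with a replicate left out. mt-Nd1 turned to 0.45 and mt-Cytb to 0.47 with DESeq2's size factors, and mt-Cytb to 0.10 at 4000. Both were called lower without replicate 2 (-0.94 and -0.87), and mt-Cytb also without the filter (-0.91). The rRNAs were higher in every setting. A search of the nuclear genome for copies was not run, since no genome sequence was used here.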

Other observations

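The plates of replicate 3 with unsettled condition had mitochondrial shares of summed UMIs of 2.07% (plate 2, 91 wells, annotated as control) and 1.99% (plate 4, 77 wells, annotated as auxin). Their mitochondrial UMIs per ERCC UMI were 0.864 and 0.884. The log2 ratio of mt-Rnr1 to mt-Nd1 was -1.54 on plate 2 and -2.13 on plate 4.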
